A study of Mus musculus with 14 samples.

Results

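The genes described here encode the hypoxia-inducible factors (HIFs) and the enzymes that mark HIFs for destruction. They are the alpha subunits Hif1a, Epas1 and Hif3a, the beta subunits Arnt and Arnt2, the prolyl hydroxylases Egln1, Egln2 and Egln3, and Vhl, the substrate receptor of the ubiquitin ligase. These 9 genes were taken by symbol from the 32830 genes of the deposited table. The study sequenced RNA from the cerebral cortex of 14 day old mice of the SW strain. All animals carried Aldh1l1-GFP, a transgene that expresses green fluorescent protein under control of the Aldh1l1 gene, which is active in astrocytes. Upper and deep cortical layers were separated by hand dissection. From each layer came GFP-positive sorted cells (astrocytes, 3 libraries per layer), GFP-negative sorted cells (non-astrocytes, 2 libraries per layer) and whole layer tissue (bulk tissue, 2 libraries per layer), 14 libraries in 6 groups. Sorting followed papain digestion and excluded dead cells by DAPI. For the upper layer astrocytes and non-astrocytes the cell type field of the labels reads bulk tissue, and the titles were followed instead.

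HIFs are pairs of basic helix-loop-helix PAS proteins, 1 alpha and 1 beta subunit, that bind DNA as a unit. In the presence of oxygen, the EGLN enzymes hydroxylate prolines of the alpha subunit, VHL then recognises it and it is degraded. When oxygen falls, the alpha subunit persists, pairs with ARNT or ARNT2, and switches on genes for glucose uptake, glycolysis and vessel growth. This control acts mainly on the protein, so the RNA levels below describe the supply of the parts and not the activity of the pathway.

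The libraries held between 18226457 and 30316765 reads in genes. Values are normalised read counts, which are reads per gene divided by 1 size factor per library, and 22575 genes with a value of at least 10 in at least 2 libraries were tested, all 9 members among them. Pairs of libraries of the same group had correlations between 0.956 and 0.980 across genes. The labelled fractions were checked by marker lists. All 10 astrocyte markers were higher in astrocytes than in non-astrocytes and than in bulk tissue, with summed levels between 1023516 and 1510436 in astrocyte libraries, between 26976 and 34717 in non-astrocytes and between 203484 and 243118 in bulk tissue. Neuronal markers were low in the sorted cells: all 8 were lower in both sorted fractions than in bulk tissue, and their sum lay between 458 and 639 in astrocytes, 3748 and 8961 in non-astrocytes, and 109362 and 143239 in bulk tissue. The non-astrocytes carried markers of microglia (sum 133883 to 193976), mural cells (222015 to 297471), endothelial cells (34719 to 48917), oligodendrocytes (54019 to 153459) and their precursors (25192 to 55316). None of these marker genes stood at 0 in every library. In such mixtures, fewer cells of a type and less RNA per cell cannot be told apart. The labels number the libraries but do not say that they came from separate animals, so p-values reflect only the scatter among these samples, part or all of which can be technical.

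Placed on GRCm38 with the GENCODE M21 annotation, the alpha subunit genes were Hif1a (ENSMUSG00000021109, chr12:73901375-73947530), Epas1 (ENSMUSG00000024140, chr17:86753700-86833410) and Hif3a (ENSMUSG00000004328, chr7:17031507-17062427). The beta subunit genes were Arnt (ENSMUSG00000015522, chr3:95434388-95497240) and Arnt2 (ENSMUSG00000015709, chr7:84246278-84410176). The hydroxylase genes were Egln1 (ENSMUSG00000031987, chr8:124908587-124949324), Egln2 (ENSMUSG00000058709, chr7:27158658-27166802) and Egln3 (ENSMUSG00000035105, chr12:54178981-54203860), and Vhl (ENSMUSG00000033933) lay at chr6:113623959-113631633. Exons of 3 members overlap those of another gene. Hif1a shares 330 bases with the antisense gene Gm15283 and 148 with Gm49321 on its own strand. Arnt2 shares 214 with the antisense gene Gm30873, and Egln2 shares 11 with Cyp2t4 on the other strand. The sources used here do not say whether reads were counted by strand, and strand cannot separate Hif1a from Gm49321. A small part of the counts of Hif1a, Arnt2 and Egln2 is thus uncertain.

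HIFs bind the core motif ACGTG or GCGTG, and several genes of the pathway are known targets of it themselves. RefSeq promoters (GRCm38.p6, from 250 bases before to 50 after the start, 300 in all) matched 8 of the 9 genes, all but Epas1. ACGTG on either strand occurred in 4 of the 8 genes against 19.62% of 32851 promoters, GCGTG in 4 against 32.39%, and either core in 6 against 43.77%. A gene was counted where any of its promoters held the core, and Egln2 had 2, while the percentages are per promoter. Arnt2 and Vhl held neither in this window. The windows below, of 29 bases, show every upstream ACGTG read on the gene's own strand, since those genes include Egln1 and Egln3, the hydroxylases best known to be induced by hypoxia. Capitals mark the core. Upstream and the distances are relative to the RefSeq start, which can differ from the end of the GENCODE span. Both Hif1a windows and the Egln1 core lie inside the GENCODE spans of these genes.
Hif1a, chr12:73907721-73907749, + strand, 134 bases before the start: acacagacaagcACGTGagcggggcagct
Hif1a, chr12:73907785-73907813, + strand, 70 bases before the start: tggctgagagcaACGTGggctggggtggg
Egln1, chr8:124949306-124949334, - strand, 68 bases before the start: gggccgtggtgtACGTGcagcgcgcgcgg
Egln2, chr7:27166834-27166862, - strand, 48 bases before the start: agcctcctgtcaACGTGcggttcgcgcac
Egln3, chr12:54204087-54204115, - strand, 229 bases before the start: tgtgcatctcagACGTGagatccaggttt
Hif3a, the member with the widest spread of levels on the log scale, had GCGTG alone, of which 1 is shown.
Hif3a, chr7:17062597-17062625, - strand, 186 bases before the start: tctggggcagggGCGTGgctgggggtgtg
The first of the Hif1a windows also holds the palindrome CACGTG, so that the core there reads on both strands. A match to so short a motif is a description of the letters and not of a bound site, and the G and C content of these promoters ran from 49.3% in the second of the 2 Egln2 promoters to 86.0% in Egln1.

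Fractions differed in most members. Between astrocytes and non-astrocytes limma called 6 of the 9 members at an adjusted p below 0.05, 4 higher (Hif3a, Arnt2, Vhl, Egln3) and 2 lower (Epas1, Hif1a). Of all genes tested, 66.3% were called in this comparison, 29.6% higher and 36.8% lower, so the count of members was close to the background. Between astrocytes and bulk tissue all 9 were called, 6 higher and 3 lower, against 64.8% of all genes (28.8% higher, 36.1% lower). Between non-astrocytes and bulk tissue 7 of 9 were called, 3 higher and 4 lower, against 61.6% of all genes (30.5% higher, 31.1% lower). The members' median log2 difference was 0.19, 0.77 and -0.35 in the 3 comparisons in that order, and that of all genes tested was -0.08, -0.10 and -0.04. edgeR and DESeq2 on the recovered reads also called 6, 9 and 7 members. The 3 comparisons share libraries, and each is given on its own.

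**Figure D1:**
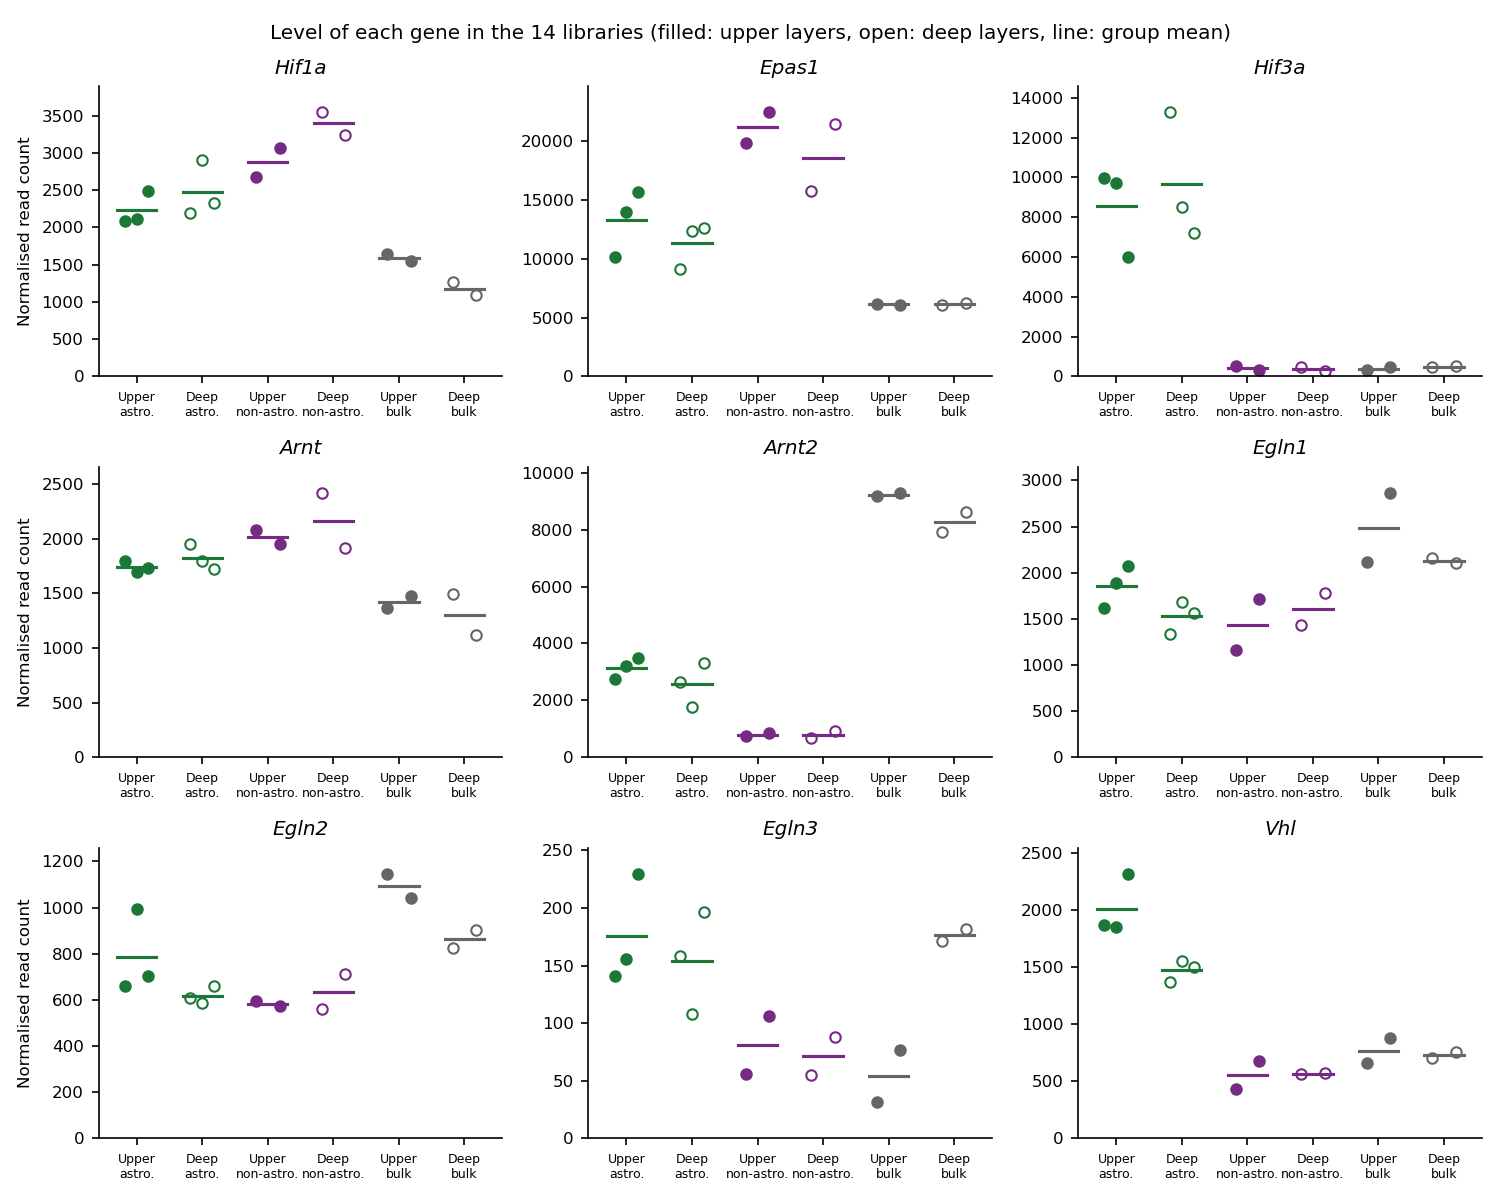
Normalised read count (vertical axes, each from 0) of each of the 9 genes in every library, by layer and fraction, with 1 point per library and a line at the group mean. Hif3a is high in the 6 astrocyte libraries alone, Arnt2 is highest in bulk tissue, and Egln3 is low in the upper but not the deep layer bulk tissue.

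Hif3a, the alpha subunit whose isoforms can restrain the other HIFs, had the largest difference between fractions of the 9 genes. It stood at 9964, 9742 and 5979 normalised reads in upper layer astrocytes and at 13266, 8526 and 7184 in deep layer astrocytes. Non-astrocytes had 524 and 299 in upper and 444 and 254 in deep layers, and bulk tissue had 316 and 458 in upper and 446 and 501 in deep layers. Every astrocyte library lay above every other library, with 5979 as the lowest on one side and 524 as the highest on the other. The fold was 24.1 against non-astrocytes (log2 difference 4.59, SE 0.23, limma adjusted p = 1.3e-10) and 20.8 against bulk tissue (4.38, SE 0.23, limma adjusted p = 2.3e-10). Non-astrocytes and bulk tissue overlapped and did not differ in the test (-0.22, 95% interval -0.76 to 0.32, limma adjusted p = 0.473). The sign of that small difference turned (0.15) when libraries were scaled to equal totals. Unlike Hif3a, the astrocyte marker sums were higher in bulk tissue (203484 to 243118) than in non-astrocytes (26976 to 34717). The cause of this contrast was not tested.

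Epas1, which encodes HIF-2 alpha, had the highest mean per kb of exon of the alpha subunits in each of the 6 groups. In the first deep layer astrocyte library Hif3a lay above it per kb (1977 against 1637). Epas1 was highest outside astrocytes. Upper layer non-astrocytes had 19872 and 22441 normalised reads and deep layer non-astrocytes 15720 and 21477. Astrocytes had 10110, 13987 and 15681 in upper and 9151, 12336 and 12630 in deep layers, all of them below every non-astrocyte library. Bulk tissue was the lowest and the tightest, at 6131 and 6104 in upper and 6029 and 6198 in deep layers. Epas1 was 1.63-fold lower in astrocytes than in non-astrocytes (log2 difference -0.70, SE 0.15, limma adjusted p = 0.00063). It was 1.98-fold higher in astrocytes (0.99, SE 0.15, limma adjusted p = 2.7e-05) and 3.22-fold higher in non-astrocytes (1.69, SE 0.16, limma adjusted p = 2.9e-07) than in bulk tissue, and no library of either sorted fraction overlapped with bulk tissue. Epas1 is known to be strong in endothelial and mural cells. All 8 endothelial and all 8 mural markers were higher in non-astrocytes than in bulk tissue. So were all 8 markers of microglia, all 6 of meningeal fibroblasts and all 5 of oligodendrocyte precursors. In astrocytes the endothelial and mural sums were 640 to 1229 and 3926 to 8121, below those of bulk tissue (4165 to 5460 and 8814 to 11138). All 8 endothelial markers were called lower in astrocytes than in bulk tissue. Of the 8 mural markers 6 were called lower and 2 higher, Pdgfrb (2482 against 479) and Tagln (86.8 against 48.5). Of all genes tested, 64.8% were called in this comparison. The part of any of these cell types in the Epas1 levels was not tested.

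Hif1a, the broadly expressed alpha subunit that drives the glycolytic response, followed the same order as Epas1 with smaller steps. Its normalised reads were 2684 and 3073 in upper and 3547 and 3249 in deep layer non-astrocytes. In astrocytes they were 2092, 2111 and 2494 in upper and 2195, 2905 and 2334 in deep layers. Bulk tissue had 1640 and 1548 in upper and 1265 and 1093 in deep layers, below every sorted library. The difference between astrocytes and non-astrocytes was -0.42 (SE 0.12, limma adjusted p = 0.00496), a 1.33-fold lower level, and 1 deep layer astrocyte library lay within the range of the non-astrocytes. Hif1a was 1.71-fold higher in astrocytes (0.77, SE 0.12, limma adjusted p = 2.6e-05) and 2.28-fold higher in non-astrocytes (1.19, SE 0.13, limma adjusted p = 8.9e-07) than in bulk tissue.

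Per the labels' protocols, both sorted fractions had been digested with papain and sorted, while the RNA of bulk tissue came from whole layers. Most of the listed genes of dissociation stress were higher than in bulk tissue in the non-astrocytes, but not in the astrocytes. Of 18 immediate early and stress genes, 11 were higher and 4 lower in non-astrocytes than in bulk tissue, with a median log2 difference of 2.36. Hspa1a, a heat shock chaperone, averaged 3749 ± 1237 (SD, n = 4) against 34.9 ± 4.13 (SD, n = 4), and Jun, an early response factor, 3876 ± 712 against 530 ± 97.5. In astrocytes 2 of the 18 were higher than in bulk tissue and 10 were lower, with a median of -2.08. The 2 were Zfp36, at 546 ± 106 against 129 ± 12.3, and Hspa1a, at 73.2 ± 32.8 against 34.9 ± 4.13. All 18 were lower in astrocytes than in non-astrocytes. Of all genes tested, 61.6%, 64.8% and 66.3% were called in these comparisons in that order. Egr1, a neuronal activity and stress gene, averaged 497 ± 82.3 (SD, n = 6) in astrocytes. It averaged 10552 ± 2013 in non-astrocytes and 22427 ± 6641 in bulk tissue. The 4 genes lower in non-astrocytes than in bulk tissue were Fosl2, Egr1, Jund and Egr2. Among the members, Hif1a, Epas1 and Arnt were called higher than in bulk tissue in both sorted fractions, and Arnt2, Egln1 and Egln2 lower. The part of dissociation in the level of these or any other member was not tested.

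Among the beta subunits, Arnt2, the partner known for its expression in neurons, had the widest range on the log scale after Hif3a. It had 9173 and 9274 normalised reads in upper and 7913 and 8609 in deep layer bulk tissue. Astrocytes had 2769, 3196 and 3488 in upper and 2653, 1760 and 3300 in deep layers. Non-astrocytes had 737 and 840 in upper and 678 and 920 in deep layers. The 3 ranges did not overlap. Arnt2 was 3.12-fold lower in astrocytes than in bulk tissue (log2 difference -1.64, SE 0.16, limma adjusted p = 2.2e-07), 11.1-fold lower in non-astrocytes than in bulk tissue (-3.47, SE 0.17, limma adjusted p = 2.4e-10) and 3.54-fold higher in astrocytes than in non-astrocytes (1.82, SE 0.16, limma adjusted p = 6.4e-08). The neuronal marker sums given above have bulk tissue highest as well, but with non-astrocytes above astrocytes, the reverse of the order of Arnt2 in the sorted fractions. The part of neuronal RNA in the level of Arnt2 was not tested.

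Arnt, the general partner of the alpha subunits and of the aryl hydrocarbon receptor, varied less than Arnt2. Its normalised reads were 1800, 1695 and 1729 in upper and 1953, 1796 and 1725 in deep layer astrocytes. They were 2081 and 1949 in upper and 2415 and 1914 in deep layer non-astrocytes. Bulk tissue had 1369 and 1471 in upper and 1491 and 1116 in deep layers, below every sorted library. Arnt was 1.32-fold higher in astrocytes (log2 difference 0.40, SE 0.11, limma adjusted p = 0.00681) and 1.54-fold higher in non-astrocytes (0.62, SE 0.13, limma adjusted p = 0.00051) than in bulk tissue. The first of these calls was lost without the second deep layer bulk tissue library (0.29, adjusted p = 0.0609). Astrocytes and non-astrocytes overlapped (-0.22, 95% interval -0.47 to 0.02, limma adjusted p = 0.0961), and this difference was called without the second deep layer non-astrocyte library (-0.31, adjusted p = 0.0486) and with equal library totals (-0.41, adjusted p = 0.0234).

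Egln1, the main oxygen sensor among the hydroxylases (PHD2), and Egln2, the nuclear PHD1, were both highest in bulk tissue. Egln1 had 2121 and 2860 normalised reads in upper and 2155 and 2110 in deep layer bulk tissue. In astrocytes it had 1614, 1889 and 2076 in upper and 1335, 1687 and 1567 in deep layers, and in non-astrocytes 1159 and 1716 in upper and 1433 and 1779 in deep layers. All bulk tissue libraries lay above all sorted libraries, while the sorted fractions overlapped. Egln1 was 1.37-fold lower in astrocytes (log2 difference -0.45, SE 0.14, limma adjusted p = 0.0119) and 1.53-fold lower in non-astrocytes (-0.61, SE 0.16, limma adjusted p = 0.00315) than in bulk tissue. The astrocyte call was lost without the second upper layer bulk tissue library, which had the highest value of all (-0.34, adjusted p = 0.0799). With equal library totals neither call held (-0.26, adjusted p = 0.0559 and -0.24, adjusted p = 0.111). Astrocytes and non-astrocytes differed by 0.16 (95% interval -0.14 to 0.46, limma adjusted p = 0.328), a sign that turned with equal library totals (-0.02).

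Egln2 had 1144 and 1040 normalised reads in upper and 826 and 901 in deep layer bulk tissue. Astrocytes had 659, 995 and 704 in upper and 607, 586 and 661 in deep layers. Non-astrocytes had 597 and 572 in upper and 561 and 710 in deep layers. A single upper layer astrocyte library, the second, reached into the range of bulk tissue. Egln2 was 1.40-fold lower in astrocytes (log2 difference -0.49, SE 0.13, limma adjusted p = 0.00464) and 1.60-fold lower in non-astrocytes (-0.67, SE 0.15, limma adjusted p = 0.00090) than in bulk tissue. With equal library totals neither call held (-0.30, adjusted p = 0.0871 and -0.30, adjusted p = 0.119). The sorted fractions did not differ in the test (0.19, 95% interval -0.10 to 0.47, limma adjusted p = 0.231), and their difference turned to -0.00014 with equal library totals.

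Egln3 (PHD3), the hydroxylase most strongly induced by HIFs in many tissues, had the lowest mean level per kb of exon of the 9 genes in each of the 6 groups. Its normalised reads were 141, 156 and 229 in upper and 158, 108 and 197 in deep layer astrocytes. Non-astrocytes had 56.0 and 106 in upper and 55.0 and 88.2 in deep layers, all below the lowest astrocyte library. Bulk tissue was divided, with 31.3 and 77.1 in upper layers and 172 and 182 in deep layers. Egln3 was 2.17-fold higher in astrocytes than in non-astrocytes (log2 difference 1.12, SE 0.29, limma adjusted p = 0.00288). Against bulk tissue it was 1.71-fold higher in astrocytes (0.77, SE 0.29, limma adjusted p = 0.0276), with overlapping libraries. That call was lost when any of 5 single libraries was left out: replicate 3 of upper or of deep layer astrocytes (0.67, adjusted p = 0.0661 and 0.67, adjusted p = 0.0611), replicate 1 or 2 of deep layer bulk tissue (0.75, adjusted p = 0.0739 and 0.79, adjusted p = 0.0609) or replicate 1 of upper layer bulk tissue (0.45, adjusted p = 0.191). Non-astrocytes and bulk tissue did not differ in the test (-0.35, 95% interval -1.02 to 0.32, limma adjusted p = 0.354), and the sign turned with equal library totals (0.02).

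Vhl, which recognises hydroxylated alpha subunits for ubiquitination, was higher in astrocytes than in both other fractions. It had 1865, 1850 and 2311 normalised reads in upper and 1364, 1556 and 1501 in deep layer astrocytes. Non-astrocytes had 434 and 679 in upper and 559 and 569 in deep layers, and bulk tissue had 661 and 875 in upper and 707 and 755 in deep layers. Every astrocyte library lay above every other library, and non-astrocytes overlapped with bulk tissue. Vhl was 3.09-fold higher in astrocytes than in non-astrocytes (log2 difference 1.63, SE 0.14, limma adjusted p = 5.8e-08) and 2.30-fold higher than in bulk tissue (1.20, SE 0.14, limma adjusted p = 1.9e-06). Its level in non-astrocytes was 1.35-fold below that in bulk tissue (-0.43, SE 0.15, limma adjusted p = 0.0241). That last call was lost with equal library totals (-0.06, adjusted p = 0.734) and without any of 4 libraries: the first deep layer (-0.42, adjusted p = 0.0542) or first upper layer (-0.27, adjusted p = 0.116) non-astrocyte library, or the second deep layer (-0.41, adjusted p = 0.0701) or second upper layer (-0.33, adjusted p = 0.115) bulk tissue library.

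**Figure D2:**
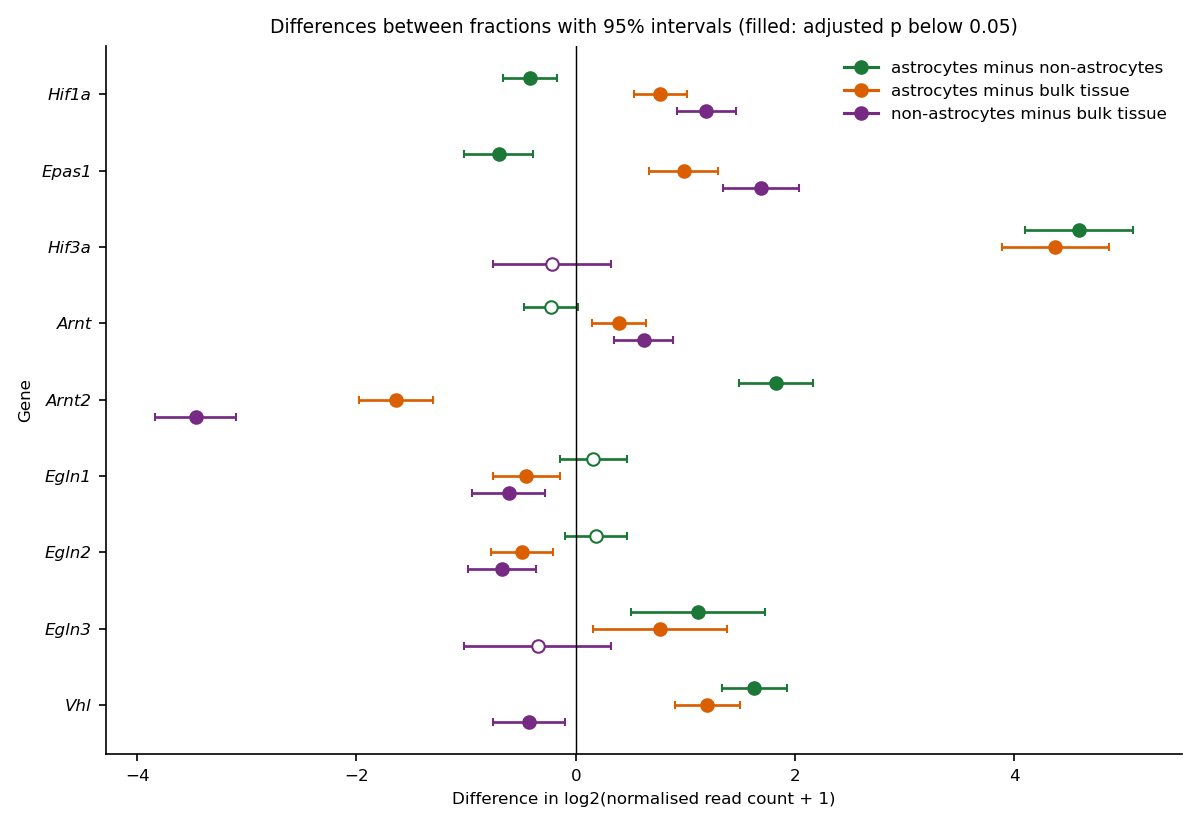
Difference between fractions in log2(normalised read count + 1) for each gene (horizontal axis), with 95% intervals from limma and filled points where the adjusted p was below 0.05. Hif3a and Vhl lie to the right for both comparisons that start from astrocytes, and Arnt2 lies to the left for both comparisons against bulk tissue but to the right for astrocytes minus non-astrocytes.

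Levels can be set beside each other between genes only per length, so the families were also compared as normalised reads per kb of exon. Among the alpha subunits, Epas1 had 2203 ± 432 normalised reads per kb in astrocytes (SD, n = 6), Hif3a 1358 ± 379 and Hif1a 399 ± 52.3. Hif3a thus made up 34.4% ± 9.72 of the summed alpha subunit level per kb in astrocytes, with single libraries between 21.6% and 49.6%. It made up 1.41% ± 0.575 in non-astrocytes (SD, n = 4) and 4.61% ± 0.914 in bulk tissue (SD, n = 4). Epas1 held 55.5% ± 9.33 in astrocytes, 85.5% ± 3.17 in non-astrocytes and 78.6% ± 1.99 in bulk tissue. Hif1a held 10.1% ± 1.38, 13.1% ± 2.87 and 16.8% ± 2.71. Per kb, Hif3a in astrocytes exceeded 97.6% of the 22091 tested genes with a known exon length, against 46.3% in non-astrocytes and 48.9% in bulk tissue.

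The beta subunits exchanged their order. Arnt2 had 372 ± 81.4 normalised reads per kb in astrocytes and Arnt had 223 ± 11.7, so Arnt2 made up 61.9% ± 6.57 of the sum (SD, n = 6). In non-astrocytes Arnt2 had 103 ± 14.0 and Arnt 261 ± 28.5, and the share of Arnt2 was 28.5% ± 4.72 (SD, n = 4). In bulk tissue the values were 1137 ± 81.4 and 170 ± 21.5, a share of 87.0% ± 1.77. Arnt2 was the larger in all astrocyte and bulk tissue libraries and the smaller in all non-astrocyte libraries.

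The hydroxylases kept their order in every group, Egln1 above Egln2 above Egln3. Egln1 had 471 ± 72.1 normalised reads per kb in astrocytes, 423 ± 79.2 in non-astrocytes and 643 ± 102 in bulk tissue. Its share of the summed hydroxylase level per kb was 60.2% ± 3.57, 62.9% ± 3.54 and 61.9% ± 3.53. Egln2 held 31.9% ± 3.61, 32.8% ± 4.10 and 33.8% ± 4.53. Egln3 held 7.93% ± 1.81 in astrocytes and 4.22% ± 0.940 in non-astrocytes, and in bulk tissue 1.79% ± 0.889 in upper layers against 6.86% ± 0.196 in deep layers (SD, n = 2 each). Vhl had 581 ± 114 normalised reads per kb in astrocytes, 187 ± 33.5 in non-astrocytes and 250 ± 30.8 in bulk tissue.

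**Figure D3:**
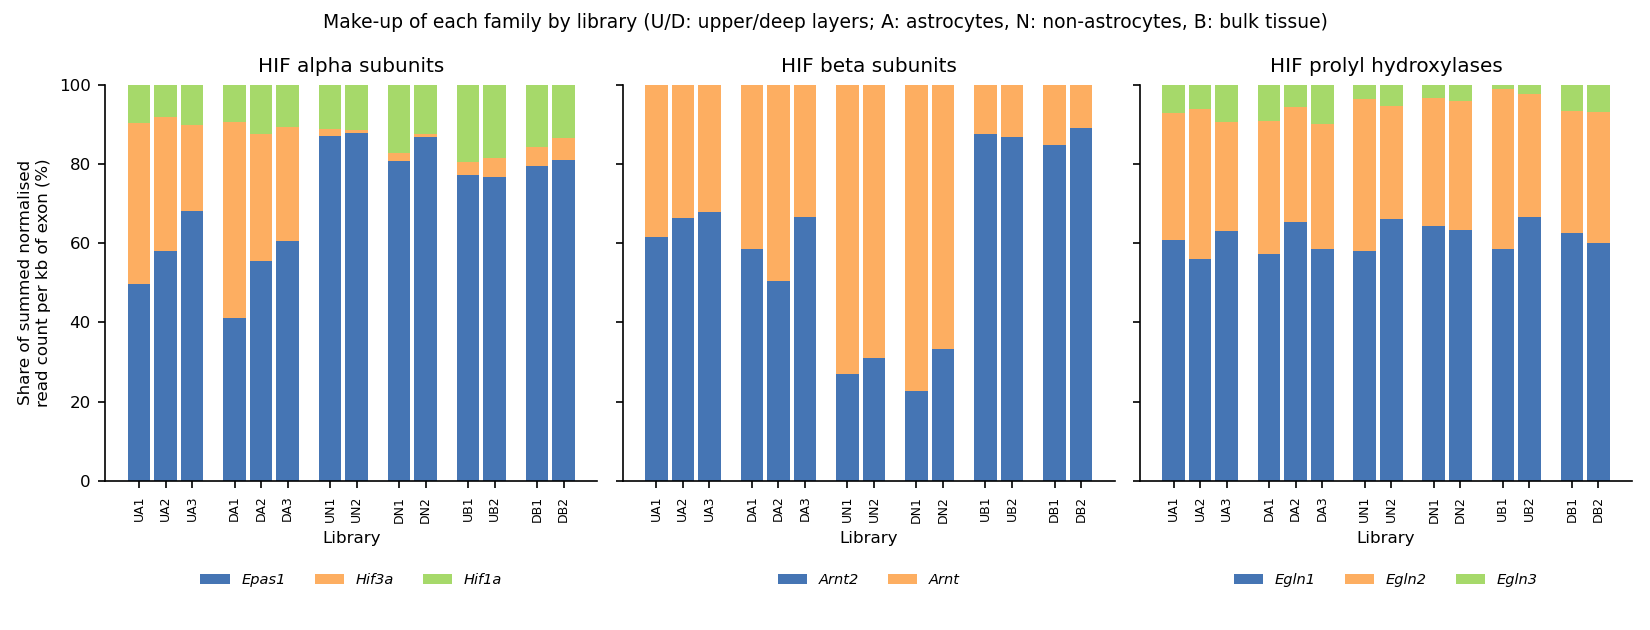
Share (vertical axis, %) of each gene in the summed normalised read count per kb of exon of its family, 1 bar per library (horizontal axis). The Hif3a share is 21.6% to 49.6% in astrocytes and under 6% elsewhere, the Arnt2 share is lowest in non-astrocytes, and the group means of the Egln1 share lie between 60.0% and 63.8%.

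Ratios within a library do not depend on how libraries are scaled, and 4 of them were compared between the 3 fractions in 12 exact two-sided permutation tests, chosen after the levels had been seen. Per kb, the geometric mean ratio of Hif3a to Epas1 was 0.607 in astrocytes (n = 6), 0.0154 in non-astrocytes (n = 4) and 0.0578 in bulk tissue (n = 4). Astrocytes differed from each of the others with exact p = 0.00476, the smallest these sizes allow (adjusted over the 12 tests, 0.0143). The ratio of Arnt2 to Arnt was 1.63, 0.395 and 6.71 in the same order, again with exact p = 0.00476 for astrocytes against each of the others (adjusted 0.0143). Between non-astrocytes and bulk tissue both ratios reached exact p = 0.0286, the smallest that 4 against 4 allows, and missed the threshold after adjustment (0.0571). In the levels given above, Epas1 and Arnt2 had already separated all 3 fractions, and Hif3a the astrocytes. The p-values of both ratios largely repeat that separation and add no support of their own. The ratio of Epas1 to Hif1a was 5.46, 6.65 and 4.71, and none of its 3 comparisons passed (exact p from 0.0857 to 0.262). The ratio of Egln1 to Egln2 was 1.89, 1.93 and 1.84 (exact p from 0.714 to 0.881). The largest difference of the latter was 0.07 on the log2 scale, and its sign turned when single libraries were left out.

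Layers within a fraction were then compared. No member was called between upper and deep layer astrocytes by limma, edgeR or DESeq2, where limma called 0.0797% of all genes. An unadjusted limma p below 0.05 was found for 1 of 9. The share of all genes at that unadjusted threshold is not given, here or below. The member below it was Vhl, with 1865, 1850 and 2311 normalised reads in upper and 1364, 1556 and 1501 in deep layers. Vhl was also the single member whose libraries did not overlap between these layers, where 16% of all genes tested did not. The log2 difference was 0.44 (SE 0.18, 95% interval 0.06 to 0.82, limma adjusted p = 0.433). Libraries of the same number deviated weakly together in the 2 layers of astrocytes, though the labels do not state a pairing. With the number as a block the limma adjusted p of Vhl was 0.145 and still no member was called, while the genes called rose from 18 to 188. For the other 8 members the intervals reached from -0.78 to 0.97 on the log2 scale at their extremes, and Hif3a differed by -0.16 (95% interval -0.78 to 0.46).

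In non-astrocytes no member was called between layers by any of the 3 tools and none had an unadjusted p below 0.05, where 0.00443% of all genes were called. Hif1a was the single member that did not overlap between these layers, where 25.5% of all genes tested did not, with 2684 and 3073 in upper and 3547 and 3249 in deep layers (log2 difference -0.24, 95% interval -0.62 to 0.14, limma adjusted p = 1). In bulk tissue limma and edgeR called no member and DESeq2 called 1, with 0.456% of all genes called by limma. Unadjusted p-values were below 0.05 for 2 members, Egln3 and Hif1a, and 4 members did not overlap between layers (Hif1a, Arnt2, Egln2 and Egln3). Of all genes tested 43.8% did not overlap here, so the count of members was at the background.

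Egln3 showed the largest layer difference of the 9 genes. Upper layer bulk tissue had 31.3 and 77.1 normalised reads and deep layer bulk tissue 172 and 182, a log2 difference of -1.82 (SE 0.44, 95% interval -2.77 to -0.88, limma adjusted p = 0.103). It passed in 4 of 15 alternatives, DESeq2 among them (-1.71, DESeq2 adjusted p = 0.0151), over which the adjusted p ran from 0.0131 to 0.667. Without the first upper layer library the difference was -1.19. In sorted cells Egln3 differed between layers by 0.20 in astrocytes (95% interval -0.58 to 0.97) and 0.14 in non-astrocytes (-0.80 to 1.09). Oligodendrocyte markers moved with the layers of bulk tissue: 4 of 7 were called lower in upper layers, and their sum was 38736 to 42397 there against 128341 to 151197 in deep layers. In non-astrocytes, whose Egln3 libraries overlapped, this sum was 54019 to 61466 in upper and 114375 to 153459 in deep layers. None of the 8 neuronal markers was called between the layers of bulk tissue. The part of these cell types in the Egln3 level was not tested.

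Hif1a went the other way in bulk tissue, with 1640 and 1548 in upper and 1265 and 1093 in deep layers (log2 difference 0.44, SE 0.18, 95% interval 0.06 to 0.82, limma adjusted p = 0.557). The layer difference of astrocytes was compared with that of the other fractions directly. Against non-astrocytes no member was called by limma, edgeR or DESeq2 and none had an unadjusted p below 0.05 (0.00443% of all genes called). Against bulk tissue no member was called by any of the 3 tools (0.137% of all genes called by limma), and 2 had an unadjusted p below 0.05. These were Egln3 (2.02, 95% interval 0.80 to 3.24, limma adjusted p = 0.283) and Hif1a (-0.58, 95% interval -1.07 to -0.09, limma adjusted p = 0.516).

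**Figure D4:**
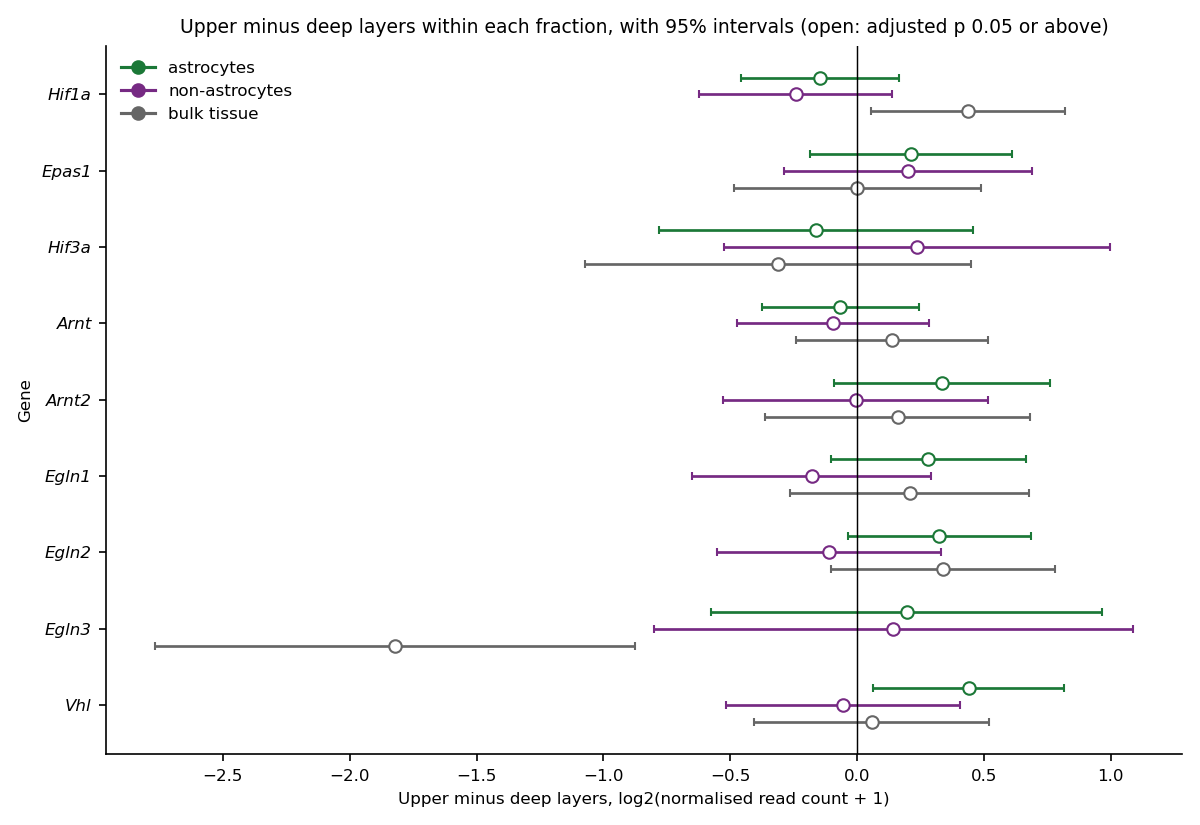
Upper minus deep layers in log2(normalised read count + 1) for each gene within each fraction (horizontal axis), with 95% intervals from limma and open points for an adjusted p of 0.05 or above. All 27 points are open, and Egln3 in bulk tissue lies farthest from 0, at -1.82.

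Across the 14 libraries the members fell into patterns that follow the fractions. Pearson's r on the log2 scale was 0.91 for Hif3a with Vhl, 0.89 for Hif1a with Epas1, 0.90 for Hif1a with Arnt and 0.77 for Egln1 with Egln2, and it was -0.91 for Hif1a with Arnt2. These are descriptions over libraries that share fraction, layer and scaling. Among 12114 genes with a mean of at least 100, those most like Hif3a were Fnbp1 (r = 0.993), Glis3 (0.993) and Aox1 (0.991), with means of 12273, 1822 and 1703 normalised reads in astrocytes and 2997, 254 and 212 in non-astrocytes. Those most like Vhl were Adcyap1r1 (0.983), Psph (0.982) and Emc8 (0.980). Adcyap1r1, the receptor of the neuropeptide PACAP, averaged 17835 in astrocytes against 1739 in non-astrocytes.

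Epas1 was most like Lamb2 (r = 0.987), Wwtr1 (0.984) and Myo1e (0.983). Lamb2, a laminin chain of basement membranes, averaged 997 in astrocytes, 2776 in non-astrocytes and 305 in bulk tissue. Hif1a was most like Smarcad1 (0.974), Zfx (0.973) and Arhgap18 (0.968), and Arnt like Itch (0.955), Snhg15 (0.949) and Zfp143 (0.946). Arnt2 was most like Unc79 (0.991), Soga3 (0.990) and Mapk8ip3 (0.990), each highest in bulk tissue. The genes most like Egln1 were Mon1b (0.955), Cops8 (0.946) and Prpf19 (0.941), and those most like Egln2 were Pomk (0.944), Stk35 (0.944) and Lrfn3 (0.923). Egln3 had the loosest neighbours, Arpin (0.841), Hivep1 (0.830) and Tle4 (0.826).

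Other genes that act on HIFs were listed next. Of 20 regulators and cofactors, 1 was higher and 13 lower in astrocytes than in bulk tissue, with a median log2 difference of -0.54 against -0.10 over all genes. In non-astrocytes 4 were higher and 9 lower than in bulk tissue (median -0.39), and between astrocytes and non-astrocytes 2 were higher and 9 lower (median -0.28). The shares of all genes called in these comparisons were 64.8%, 61.6% and 66.3% in that order. Hsp90aa1, a chaperone that stabilises HIF-1 alpha, averaged 1563 ± 453 in astrocytes (SD, n = 6), 5848 ± 234 in non-astrocytes (SD, n = 4) and 7368 ± 512 in bulk tissue (SD, n = 4). Rack1, which competes with HSP90 for HIF-1 alpha, averaged 1578 ± 261, 6033 ± 1589 and 2239 ± 202. Cited2, which keeps HIFs from the coactivator p300, averaged 163 ± 61.9, 337 ± 25.7 and 786 ± 117, and Cul2, the scaffold of the VHL ligase, was 1.39-fold higher in astrocytes than in non-astrocytes (limma adjusted p = 0.0127).

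Genes known as HIF targets did not move one way. Of 33 tested out of 34 listed, 13 were higher and 13 lower in astrocytes than in non-astrocytes, 12 higher and 13 lower than in bulk tissue, and 14 higher and 14 lower in non-astrocytes than in bulk tissue. Their median log2 differences were 0.20, -0.09 and 0.22, against -0.08, -0.10 and -0.04 for all genes. The shares of all genes called in these comparisons were 66.3%, 64.8% and 61.6%. Vegfa, the vascular growth factor, averaged 16642 ± 1487 normalised reads in astrocytes (SD, n = 6), 1454 ± 277 in non-astrocytes (SD, n = 4) and 1833 ± 102 in bulk tissue (SD, n = 4), an 11.6-fold difference between the sorted fractions (log2 3.53, limma adjusted p = 5.3e-13). Kdm3a, a histone demethylase, averaged 3084 ± 391 in astrocytes against 732 ± 33.1 in bulk tissue. Pfkfb4, which sets glycolytic flux, averaged 778 ± 168 in astrocytes, 146 ± 2.54 in non-astrocytes and 127 ± 14.8 in bulk tissue.

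Other targets peaked in non-astrocytes. Hk2, a hexokinase, averaged 168 ± 18.2 in astrocytes, 1594 ± 370 in non-astrocytes and 69.5 ± 10.2 in bulk tissue. Slc2a1, the glucose transporter of the blood-brain barrier, averaged 7416 ± 1517, 10987 ± 1414 and 2537 ± 156. Ndufa4l2, a mitochondrial protein abundant in mural cells, averaged 1.27 ± 1.11 in astrocytes and 475 ± 116 in non-astrocytes. Bulk tissue led for Aldoa, a glycolytic enzyme, at 9429 ± 978 against 3977 ± 725 in astrocytes, and for Bnip3, a mitophagy receptor, at 1283 ± 181 against 531 ± 130. No listed target was called between layers in any fraction by limma in its main setting. In astrocytes 1 was called with the library number as a block. In bulk tissue 1 was called with a pseudocount of 10 and 1 with the block. There DESeq2 called 2, and a fit of only the groups compared called 4.

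**Figure D5:**
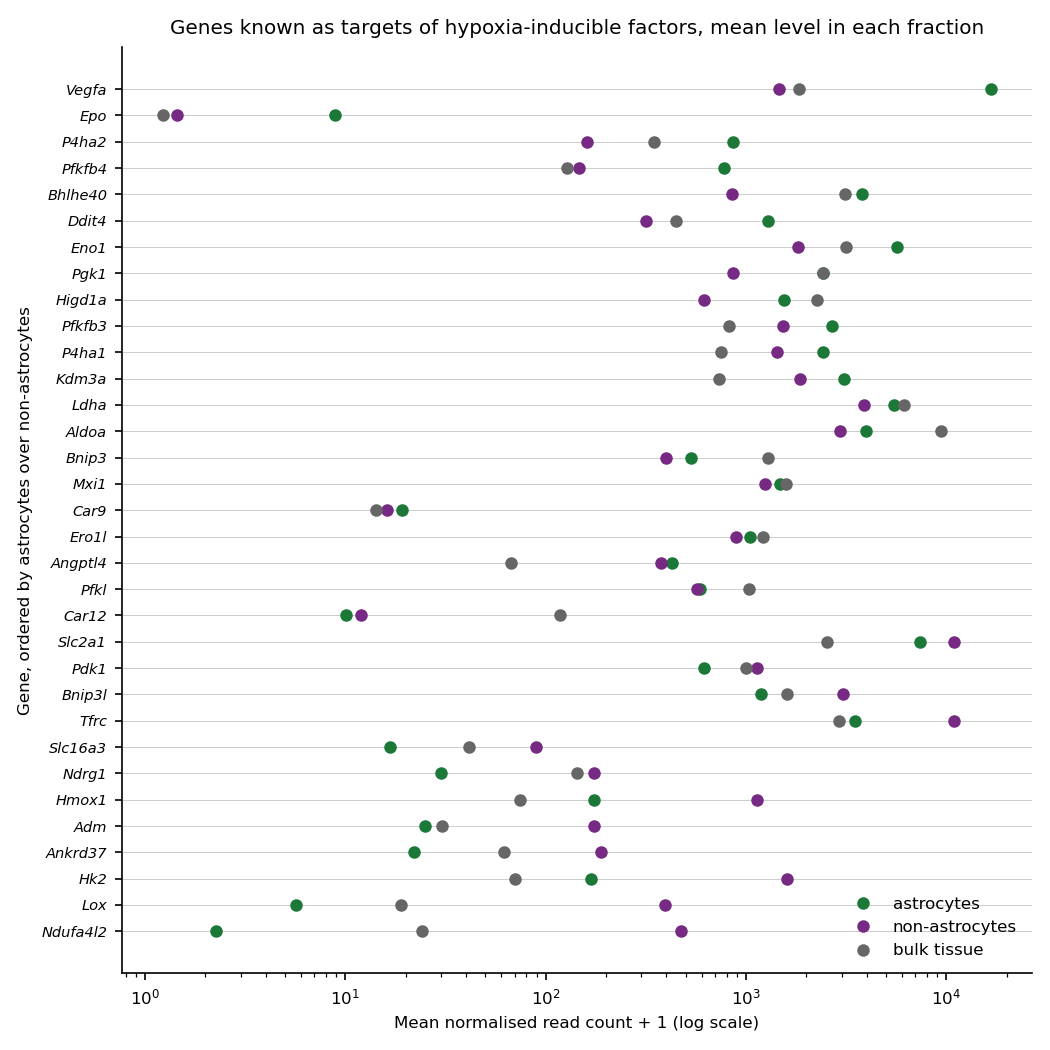
Mean normalised read count plus 1 (horizontal log axis) of 33 of the listed HIF targets in astrocytes (n = 6), non-astrocytes (n = 4) and bulk tissue (n = 4), ordered by the ratio of astrocytes to non-astrocytes. These are not the same 33 genes as those tested. The tested target whose values are not reported here is left out, and the listed target that was not tested is shown. Vegfa leads at the astrocyte end with a mean of 16642, and Ndufa4l2 lies at the other end with a mean of 1.27 in astrocytes.

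The remaining bHLH-PAS genes, of the same protein family as the HIF subunits and including the coactivators Ncoa1 and Ncoa3, also divided by fraction. Of 13 tested out of 14 listed, 5 were higher and 3 lower in astrocytes than in non-astrocytes (median log2 difference 0.08), 4 higher and 6 lower than in bulk tissue (-0.24), and 1 higher and 8 lower in non-astrocytes than in bulk tissue (-0.75). The shares of all genes called in these comparisons were 66.3%, 64.8% and 61.6%, and the medians of all genes were -0.08, -0.10 and -0.04. Npas3 came closest to the pattern of Hif3a, with 4655 ± 690 normalised reads in astrocytes (SD, n = 6), 307 ± 99.5 in non-astrocytes (SD, n = 4) and 491 ± 21.9 in bulk tissue (SD, n = 4). Npas2, a partner in the circadian clock, averaged 1628 ± 225, 135 ± 18.4 and 1874 ± 272. Npas4, induced by neuronal activity, averaged 4.50 ± 3.27 in astrocytes and 524 ± 227 in bulk tissue. Ncoa3 was the 1 gene of the list called higher in non-astrocytes than in bulk tissue, at 3212 ± 209 against 757 ± 135 in astrocytes and 1062 ± 67.1 in bulk tissue.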

How the data were processed

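Expression was measured by RNA-seq after NuGEN RNA-Seq V2 amplification. The submitters' processing notes name the GRCm38 build, the aligner TopHat2 2.0.11, the counter HTSeq 0.6.1p1, and CASAVA and DESeq2. The values the authors deposited are a signal, gene read counts divided by 1 size factor per library (0.705 to 1.303), and 100% of them were whole multiples of 1 read within 1e-06. The reads recovered in this way were used for edgeR and DESeq2.

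Because the deposited signal is already scaled, limma 3.58.1 in R 4.3.3 with trend and robust moderation was the leading test, on log2(value + 1), with 1 model of the 6 group means over the 14 libraries. The planned test on counts, edgeR 4.0.16 (quasi-likelihood), and DESeq2 1.42.0 were alternatives. Genes with a value of at least 10 in at least 2 libraries were kept. P-values were adjusted over all 22575 of them by the Benjamini-Hochberg method, and a gene was called below 0.05. Folds refer to value + 1, which understates changes of low genes. Comparisons of fractions weigh both layers equally. Scripts were tested on simulated data.

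Same-numbered upper and deep layer astrocyte libraries deviated weakly together (correlations 0.203, 0.149 and 0.171). The labels do not state a pairing, and a block by number was an alternative, not the leading test. Which libraries shared a sequencing lane is not given in the sources used here. The members and the gene and marker lists were chosen with earlier results of these data known. The 9 members are always given, with up to 4 called genes of smallest p per list, direction and comparison, and the 3 genes with the highest correlation to each member. The values of 1 listed HIF target are not reported here. The 4 ratios were chosen after values were seen. Alternatives were other pseudocounts, filters, scalings, tools, a replicate block, fewer groups and each library left out.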

Additional observations from a re-analysis of the deposited data

Results flagged for a closer look

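Among 27 sets of libraries, each a member within a fraction, 2 held a library far from the others, where chance alone flags about 1 in 20 sets. Egln1 stood at 2860 normalised reads in the second upper layer bulk tissue library, while the other 3 bulk tissue libraries lay between 2110 and 2155. Its gap took up 0.940 of the range, above the critical value of 0.829 for 4 libraries. Without that library the difference of astrocytes from bulk tissue was -0.34 (limma adjusted p = 0.0799) and was no longer called. Egln2 stood at 995 in the second upper layer astrocyte library, while the other 5 astrocyte libraries lay between 586 and 704, a gap of 0.711 of the range against a critical value of 0.625 for 6 libraries. Without it the difference of astrocytes from bulk tissue was -0.58 (limma adjusted p = 0.00093) and kept its call. The cause of either value was not tested.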

How the results depend on the processing

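Of 972 member differences recomputed under alternatives, 918 kept their direction and their side of the threshold, 17 lost a call, 6 gained one and 31, none of them called, changed sign. No called difference changed sign. Equal library totals moved the median of all genes from -0.08 to -0.25 for astrocytes against non-astrocytes, from -0.10 to 0.07 for astrocytes against bulk tissue and from -0.04 to 0.32 for non-astrocytes against bulk tissue. They left 4 of 7 members called in the last, those that lost the call being Egln1, Egln2 and Vhl. Leaving out single libraries gave 6 to 7, 7 to 9 and 6 to 7 members called in these 3 comparisons.

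Counts between layers depended on the tool. Genes called were 142 by DESeq2, 188 with the replicate block, 1 with only the groups compared and 4 without trend or robust moderation in astrocytes (12 to 56 with a library left out). In non-astrocytes they were 4 with a pseudocount of 10, 13 without a filter, 7 by edgeR, 138 by DESeq2, 33 with the replicate block, 0 with only the groups compared and 11 without trend or robust moderation (0 to 5 with a library left out). In bulk tissue they were 340 with a pseudocount of 10, 167 by edgeR, 428 by DESeq2, 261 with the replicate block and 1093 with only the groups compared (11 to 20 with a library left out). There, 1 member, Egln3, was called with a pseudocount of 10 (adjusted p = 0.0457), by DESeq2 (0.0151), with the replicate block (0.0240) and with only the groups compared (0.0131). For the layer difference of astrocytes against that of non-astrocytes, genes called were 61 by DESeq2, 0 with equal library totals, 4 with the replicate block, 0 with only the groups compared and 2 without trend or robust moderation (0 to 2 with a library left out). Against that of bulk tissue they were 112 with a pseudocount of 10, 49 by edgeR, 191 by DESeq2 and 112 with the replicate block (0 to 72 with a library left out). The cause of these shifts was not tested.

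Between fractions the libraries share only a number, and the replicate block ended 1 member's call, that of Egln3 for astrocytes against bulk tissue (adjusted p = 0.0726). Same-numbered libraries of the 2 layers had correlations of 0.436 in non-astrocytes and 0.094 in bulk tissue. Leaving out single libraries, an alternative added after seeing the data, moved the log2 ratio of Egln1 to Egln2 from -0.02 to between -0.14 and 0.069 for astrocytes against non-astrocytes, from 0.04 to between -0.076 and 0.11 for astrocytes against bulk tissue and from 0.07 to between -0.051 and 0.18 for non-astrocytes against bulk tissue. With 2 or 3 libraries per group, a layer difference of Egln3 in sorted cells as large as 0.97 in astrocytes and 1.09 in non-astrocytes lay within the 95% intervals, and Egln3, the member with the fewest reads per kb, had the largest standard errors.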
